A study of Saccharomyces cerevisiae with 18 samples.

Results

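The large subunit of the cytosolic ribosome of Saccharomyces cerevisiae was followed through the transcripts of its protein genes. The members were all genes whose symbol in the array annotation is RPL with a number and an optional copy letter A or B, or RPP with 0, 1 or 2 and an optional copy letter. This rule took 81 of 5650 measured genes. It uses no measured value. Of these, 68 formed 34 pairs of an A and a B copy, 11 were single genes, and RPL18B and RPP1 were counted in neither class. RPP1 is known as a subunit of RNase P and RNase MRP and not of the ribosome. Its values are therefore given apart, and the other 80 genes are the ribosomal proteins.

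RNA was hybridised to 18 two-colour arrays of 3 strains, namely the parent W303-1A and its ethanol-tolerant mutants SM1 and CM1, each represented by 1 strain. Every strain was grown in medium with 0% or with 6.5% v/v ethanol, from an inoculum of unstressed late exponential cells, in 3 separate cultures per condition and 1 array per culture. The other channel of every array, for mutants and parent alike, held the same kind of reference, RNA pooled from 3 cultures of W303-1A grown without ethanol. Replicate 1 of each of the 6 groups was dye-swapped. The lesions carried by the mutants and the time of sampling are not given in the sources used here.

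Each of the roughly equimolar proteins of the large subunit is built into a particle of ribosomal RNA that joins amino acids, holds the exit tunnel for the new chain and carries a flexible stalk that recruits translation factors. In budding yeast the genome duplication left most of these proteins with a pair of nearly identical genes. Their transcripts make up a large part of the messenger RNA of a growing cell, are driven by Rap1 with Fhl1, Ifh1 and Sfp1 under control of the TOR and protein kinase A pathways, and are known to fall together under many stresses.

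All values below are log2 ratios of a culture over the pool, and all changes are differences of such log2 ratios, followed by ± their standard error as limma gave it, with n = 3 arrays in each group. The fit ran over all 5650 genes, and a gene passed at a Benjamini-Hochberg adjusted p under 0.05. The arrays give ratios and not levels, so genes were not ranked by abundance, and the amount of RNA per cell was not measured. The direction, sample over pool, is the likely reading and not a stated one. HSP12, a stress gene, stood at 7.01, 8.12 and 7.92 in W303-1A with ethanol once the sign of the swapped array had been turned. With the same turn the members' array medians in that group were -0.97, -1.02 and -0.82, whereas the swapped array had a median of 0.97 as deposited. The members' medians are the result studied here and cannot also support the turn. The swapped and normal arrays of a group resembled each other far less over all genes (r from -0.44 to 0.17) than the 2 normal arrays did (r from 0.61 to 0.84), so a dye term was part of the model. Among the 486 sets of 3 arrays, 1 for each member and group, 4 held a single value more than 2 log2 units from both others. They were RPL1B on CM1 0% replicate 3 and RPP1B, RPL40A and RPL36A on SM1 6.5% replicate 2, and they are taken up with those genes. Copies A and B can cross-hybridise, which limits what any value of a single copy shows.

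In W303-1A the large-subunit genes stood lower with ethanol almost throughout. Of 81 members 53 fell and 0 rose, where 13.6% of all genes fell and 10.2% rose, and 76 of 81 differences lay below 0. At an unadjusted p under 0.05 limma gave 63 lower and 0 higher members, where 19.4% of all genes were lower and 16.7% higher. The median difference of the members was -0.88, a 1.84-fold lower ratio, against 0.03 for all genes. On all 3 arrays with ethanol 73 of 81 members lay below the pool, or 90.1% against 20.8% of all genes. Without ethanol 9 did, or 11.1% against 10.3% of all genes. The size of the change was spread widely: 3 members lay below -2, 31 between -2 and -1, 30 between -1 and -0.5, 12 between -0.5 and 0, and 5 at or above 0. When 1 array at a time was left out, 40 of the 53 falls passed in every fit. The median was -0.96 on normal arrays alone and -0.79 on swapped arrays alone. Where another scaling moved this count, the values are in the closing section, with 27 falls after quantile normalization and 0 calls if the swapped arrays were not turned.

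**Figure D1:**
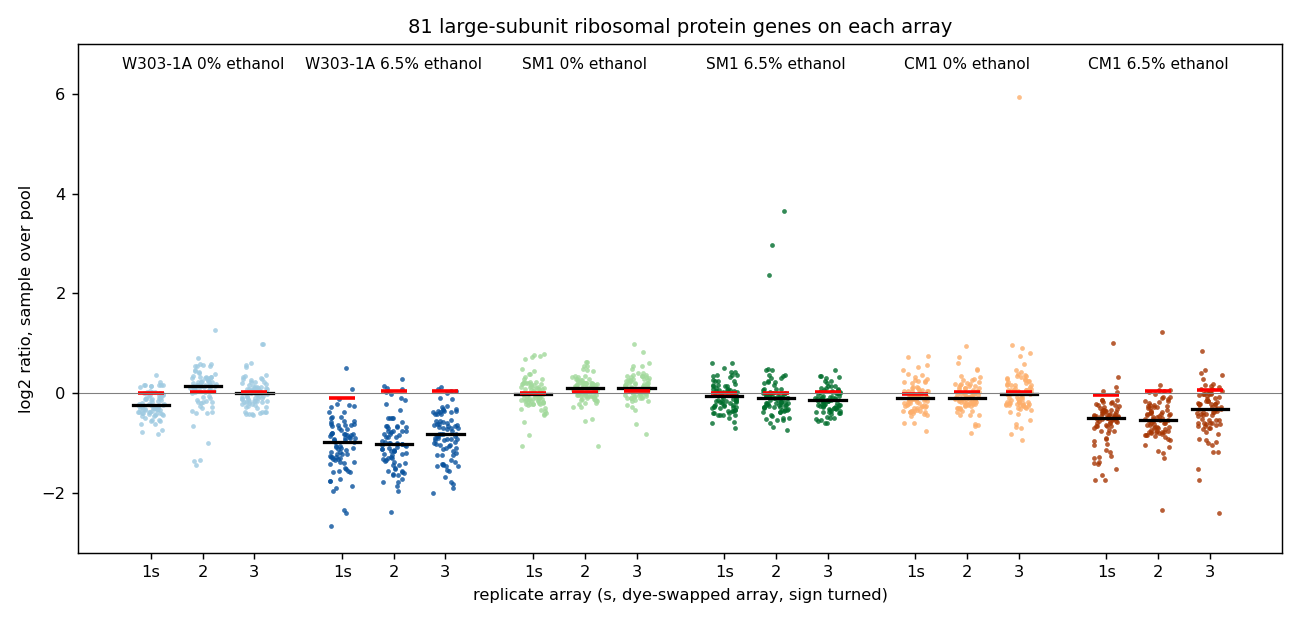
Log2 ratio over the pool (vertical axis) of 81 members on 18 arrays, in 6 groups of 3; each point is a gene, the black bar is the members' median on that array and the red bar the median of all genes, and s marks the dye-swapped array. The 3 arrays of W303-1A with ethanol have member medians between -1.02 and -0.82, and those of CM1 with ethanol between -0.54 and -0.31.

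The largest fall belonged to RPL6B, 1 of the 2 genes of a large-subunit protein without a bacterial counterpart. Its log2 ratio was 0.17, 0.08 and 0.56 on the W303-1A arrays without ethanol and -2.34, -2.39 and -1.81 with ethanol, a change of -2.46 ± 0.24 (limma adjusted p = 1.13e-05). The other copy, RPL6A, went from -0.29, 0.56 and 0.53 to -1.55, -1.87 and -1.56, a change of -1.93 ± 0.24 (limma adjusted p = 6.49e-05). Both copies separated all arrays with ethanol from all arrays without, and the highest W303-1A array with ethanol lay more than 1 log2 unit under the lowest without it.

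RPL36B, a copy of the gene for the protein eL36, ranked second. It stood at -0.55, 1.27 and 0.98 without ethanol and at -2.40, -1.31 and -1.53 with it, a change of -2.32 ± 0.29 (limma adjusted p = 6.44e-05). The swapped array was the lowest of its group in both conditions, and the groups did not overlap. Its copy RPL36A differed by -1.31 ± 0.50 and did not pass (limma adjusted p = 0.0696), although its 3 arrays with ethanol, between -1.53 and -1.24, all lay below those without, between -0.42 and 0.30. The standard error of RPL36A was pooled over all 18 arrays and included the single value of 2.37 on SM1 6.5% replicate 2.

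The stalk genes came next. RPP0 encodes the stalk base, on which the acidic proteins of RPP1A, RPP1B, RPP2A and RPP2B sit as dimers. RPP0 stood at -0.38, 0.45 and 0.99 without ethanol and at -2.66, -1.56 and -0.81 with it, a change of -2.03 ± 0.39 (limma adjusted p = 0.00157). The arrays of both conditions were spread over more than a log2 unit and still did not overlap. RPP1B gave -1.96, -1.96 and -2.01 with ethanol against 0.01, -0.38 and 0.35 without, a difference of -1.97 ± 0.72 that did not pass (limma adjusted p = 0.0606). These 6 arrays were far apart by condition. The limma adjusted p of RPP1B was 0.00546 with these groups alone, 0.0245 with the probe-order trend removed and 0.0315 with array weights. It was 0.0577 with a replicate block, 0.0756 after quantile normalization and 0.0906 without the dye term. In the fits that left out 1 array it was 0.088 to 0.155, so the gene is not counted as a fall. RPP1A fell by 0.63 on the log2 scale, from -0.43, -0.39 and -0.12 to -0.97, -1.06 and -0.81 (SE 0.21, limma adjusted p = 0.0368), a call that was lost when any 1 of the 6 arrays was left out. RPP2B fell by 0.87 (SE 0.28, limma adjusted p = 0.0328), with -0.61, 0.39 and -0.18 without ethanol and overlapping values of -0.38, -1.44 and -1.17 with it. RPP2A differed by -0.25 ± 0.43 and did not pass (limma adjusted p = 0.729), its arrays being -0.13, -1.35 and 0.26 without ethanol and -0.90, -0.51 and -0.55 with it. With RPL12A and RPL12B, whose protein lies beside the stalk base, 5 of 7 stalk genes fell, with a median of -1.16 against -0.88 for all members. Of all 81 members 53 fell, and of all genes 13.6%.

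The other functional groups fell as well. All 3 genes of the 5S RNP, the particle of RPL5, RPL11A and RPL11B with 5S rRNA, were lower, by 0.97, 1.34 and 0.87 on the log2 scale. Around the exit tunnel 12 of 17 genes fell, with a median of -0.93. They included RPL25, the docking site for factors that meet the new chain, at -1.23 ± 0.36 (limma adjusted p = 0.0211), and RPL26A at -1.48 ± 0.26. The arrays of RPL25 overlapped, with -0.35, 0.30 and 0.61 without ethanol and -1.87, -0.99 and -0.26 with it. The RPL25 call did not pass in every fit that left out 1 array. RPL39, a small protein lining the tunnel, differed by -0.51 ± 0.26 and did not pass. Near the peptidyl transferase centre and the tRNA sites 5 of 9 fell, with a median of -0.75. RPL3, which reaches toward that centre, fell by 1.47 (SE 0.18, limma adjusted p = 5.63e-05), while RPL10, which contacts tRNA, differed by -0.37 ± 0.28 and did not pass. Of the ubiquitin fusion genes, RPL40B fell by 0.91 (SE 0.26) and RPL40A differed by -0.88 ± 0.53 without passing. The arrays of RPL40B overlapped, with -0.40, 0.27 and -0.02 without ethanol and -1.09, -1.40 and -0.39 with it. Its call did not pass in every fit that left out 1 array. Those of RPL40A did not overlap, with -0.10, 0.05 and -0.06, then -0.95, -0.99 and -0.82. The standard error of RPL40A was pooled over all 18 arrays and included the value of 2.97 on SM1 6.5% replicate 2. Single genes fell in 7 of 11 cases with a median of -0.65, and members of A and B pairs in 45 of 68 with a median of -0.91. Of all 81 members 53 fell, and of all genes 13.6% did. None of these groups was tested against the others.

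In W303-1A 5 members had a difference at or above 0, and none of them passed. RPL1A and RPL1B encode the protein of the mobile stalk at the exit site for tRNA. RPL1A lay at -0.00, -0.06 and -0.00 without ethanol and at 0.09, 0.02 and 0.05 with it, a difference of 0.08 ± 0.29 (limma adjusted p = 0.886). On 16 of 18 arrays its ratio stayed within 0.15 of 0. RPL1B went from -0.33, -0.40 and -0.43 to -0.21, 0.11 and 0.12, a difference of 0.39 ± 0.98 (limma adjusted p = 0.82), with arrays that did not overlap and a standard error widened by its value on a CM1 array. RPL9A differed by 0.22 ± 0.37, from -0.42, -0.67 and -0.10 to 0.50, -0.76 and -0.28. RPL29, a small protein that yeast can do without, differed by 0.21 ± 0.22, from -0.25, -0.19 and -0.37 to -0.48, 0.28 and 0.01. RPL37A differed by 0.12 ± 0.19, from -0.31, 0.04 and -0.16 to -0.26, 0.15 and 0.04. The arrays of the last 3 genes overlapped between conditions. RPP1, the RNase P subunit that the symbol rule also takes, differed by -0.49 ± 0.35 (limma adjusted p = 0.335), from 0.36, -0.25 and 0.03 to -0.50, -0.13 and -0.71. The counts of calls were the same without it in all 12 comparisons.

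**Figure D2:**
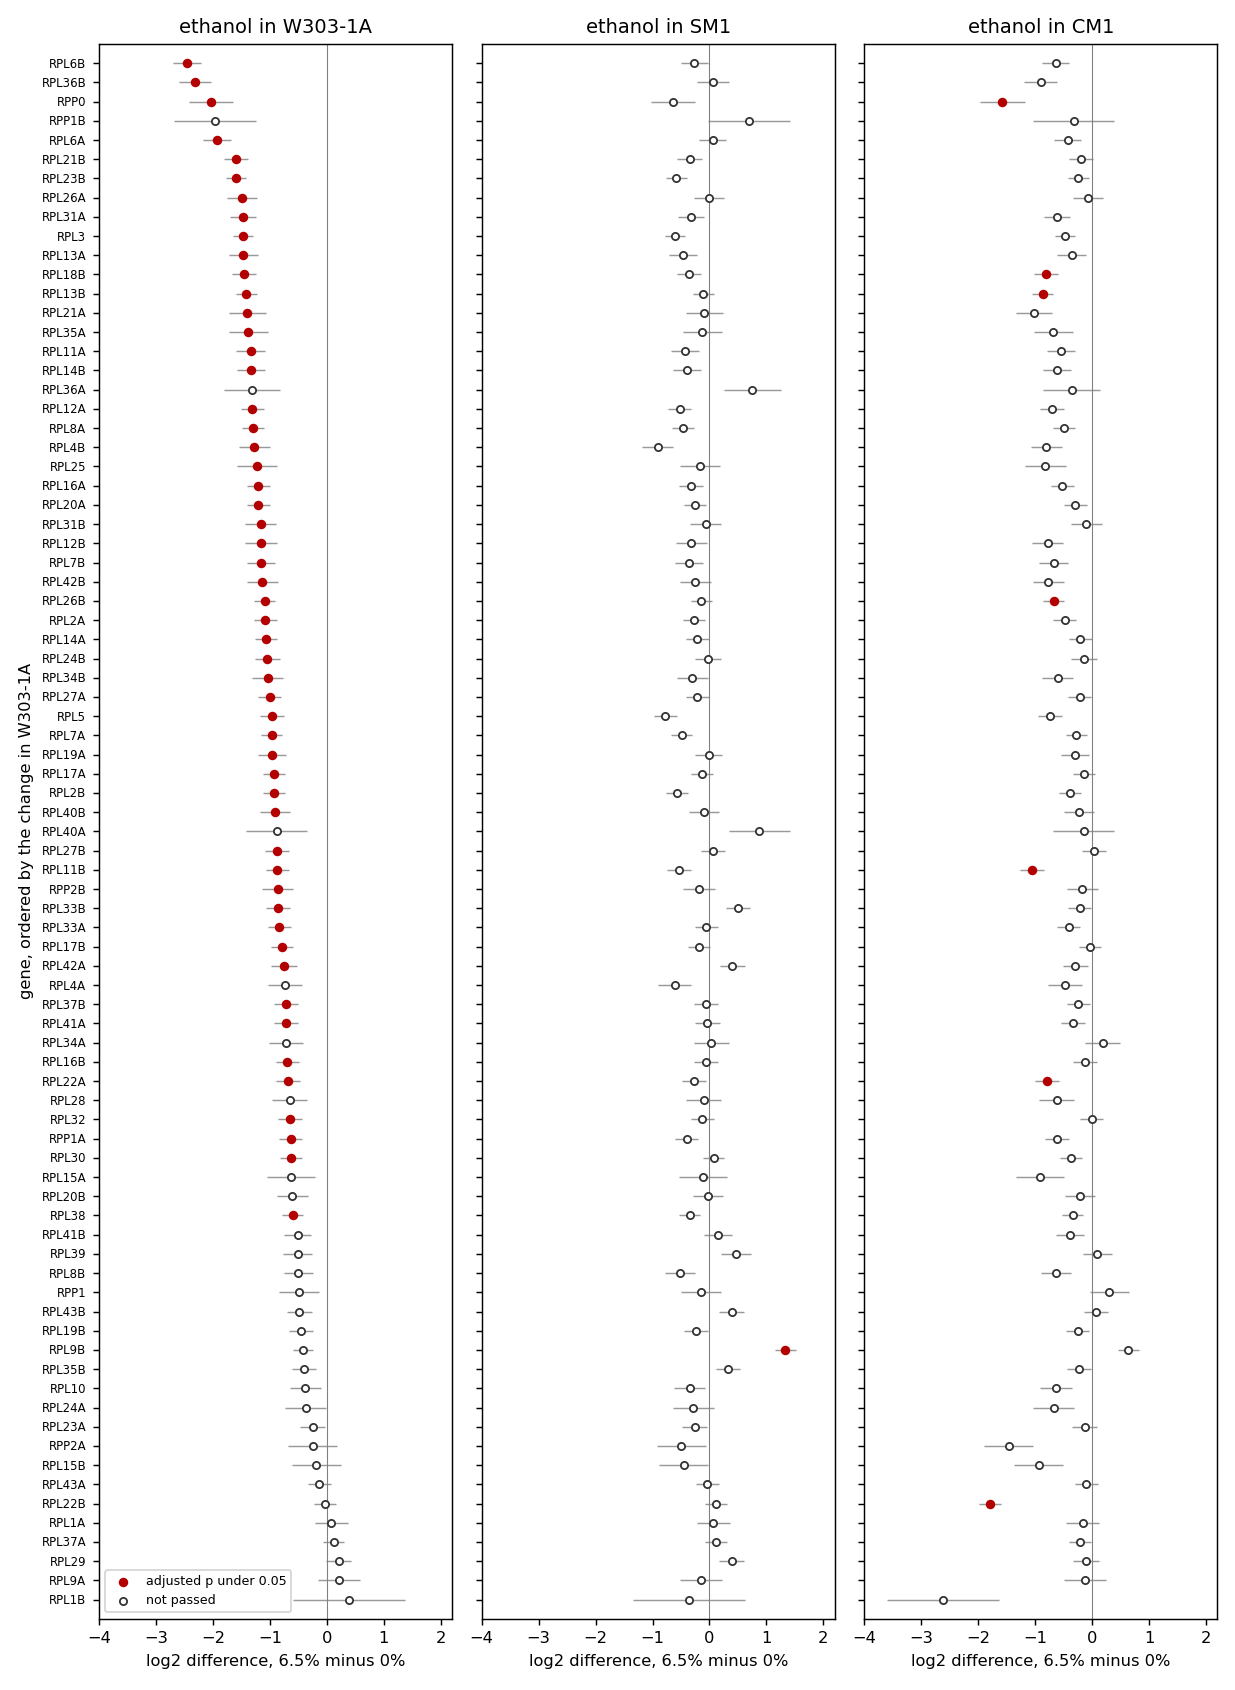
Log2 difference between 6.5% and 0% ethanol (horizontal axis) ± standard error for 81 members (rows, ordered by W303-1A) in the 3 strains; filled red points passed at an adjusted p under 0.05. In W303-1A 53 members passed on the lower side, in SM1 RPL9B passed on the higher side, and in CM1 7 passed on the lower side.

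In the mutant SM1 the members' median difference with ethanol was -0.17, against 0.00 for all genes. No member fell by the adjusted test and RPL9B rose, where 1.26% of all genes fell and 2.83% rose. At an unadjusted p under 0.05 limma gave 9 lower and 2 higher members, where 7.19% of all genes were lower and 10.7% higher. The array medians of the members were -0.02, 0.10 and 0.11 without ethanol and -0.06, -0.11 and -0.14 with it, so all 3 arrays with ethanol lay below all 3 without by a small margin. The stalk genes had a median of -0.40 and the 5S RNP genes of -0.53, with 0 of 7 and 0 of 3 passing. RPL5, at -0.77 ± 0.21, had a limma adjusted p of 0.0505, and RPP0, at 0.49, 0.54 and 0.99 without ethanol and 0.49, -0.24 and -0.14 with it, differed by -0.64 ± 0.39 (limma adjusted p = 0.43). RPL6B and RPL6A, which had fallen most among the pairs of W303-1A, differed by -0.27 ± 0.24 and 0.05 ± 0.24.

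RPL9B encodes the protein uL6, which lies near the stalk base. In SM1 it stood at -1.06, -1.06 and -0.81 without ethanol and at 0.25, 0.46 and 0.35 with it, a rise of 1.33 ± 0.18 (limma adjusted p = 0.000604). The groups lay more than 1 log2 unit apart, and the call held whichever of these 6 arrays was left out. Without ethanol the difference of SM1 from W303-1A there was -0.92 ± 0.18 (limma adjusted p = 0.0201). That call was lost in 5 of 6 fits that left out 1 array (limma adjusted p of 0.0648 to 0.145), with the compared groups alone (0.0864), with the probe-order trend removed (0.0714) and with no dye term (0.0586). CM1 showed -0.76, -0.63 and -0.54 without ethanol and -0.18, -0.01 and 0.17 with it, a difference of 0.64 ± 0.18 that did not pass (limma adjusted p = 0.0544) although the arrays did not overlap. In W303-1A the gene differed by -0.42 ± 0.18, from -0.30, 0.07 and 0.04 to -0.39, -0.69 and -0.36. The ethanol change of RPL9B in SM1 exceeded that in W303-1A by 1.75 ± 0.26 (limma adjusted p = 0.00206), and that in CM1 exceeded it by 1.05 ± 0.26 (limma adjusted p = 0.0284).

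In CM1 the members were lower with ethanol, with a median difference of -0.37 against -0.01 for all genes. Of 81 members 7 fell and 0 rose, or 8.64% lower where 1.73% of all genes fell and 3.88% rose. At an unadjusted p under 0.05 limma gave 32 lower members and 1 higher, where 9.7% of all genes were lower and 11.2% higher. The array medians were -0.10, -0.10 and -0.01 without ethanol and -0.49, -0.54 and -0.31 with it, without overlap. The 7 were RPL22B, RPP0, RPL11B, RPL13B, RPL18B, RPL22A and RPL26B. Of these, 6 had also fallen in W303-1A, which is 85.7% of the CM1 calls and 11.3% of the W303-1A calls. The exception was RPL22B. Only RPL11B and RPL22B passed whichever CM1 array was left out, and with the CM1 arrays alone in the fit 0 members passed.

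RPL22B is a copy of the gene for eL22, a protein at the rim of the exit tunnel that yeast can do without. In CM1 it gave 0.47, 0.94 and 0.46 without ethanol and -1.18, -1.16 and -1.17 with it, a fall of 1.79 on the log2 scale (SE 0.20, limma adjusted p = 6.57e-05). In W303-1A it gave -0.34, 0.12 and -0.11, then -0.23, -0.09 and -0.09, a difference of -0.03 ± 0.20 (limma adjusted p = 0.938). In SM1 it gave -0.84, -0.56 and -0.62, then -0.33, -0.73 and -0.61, a difference of 0.12 ± 0.20 (limma adjusted p = 0.83). Its 3 CM1 arrays without ethanol were above, and the 3 with ethanol below, every array of the other strains. The ethanol change in CM1 lay below that in W303-1A by -1.76 ± 0.28 (limma adjusted p = 0.0038) and below that in SM1 by -1.91 ± 0.28 (limma adjusted p = 0.0153). The latter call was lost without SM1 0% replicate 2, at 0.0533, and without SM1 0% replicate 3, at 0.0547. Its copy RPL22A fell in CM1 by 0.79 (SE 0.21, limma adjusted p = 0.0418), from -0.15, 0.19 and 0.17 to -1.02, -0.61 and -0.53.

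RPP0 fell in CM1 from 0.10, 0.60 and 0.97 to -1.52, -0.36 and -1.18, a change of -1.57 ± 0.39 (limma adjusted p = 0.0262). The groups did not overlap, yet the call was lost in 5 of 6 fits that left out 1 array. RPL11B of the 5S RNP fell from -0.08, -0.20 and 0.17 to -1.38, -1.09 and -0.81, a change of -1.06 ± 0.21 (limma adjusted p = 0.00636), with well separated arrays. Among the other stalk genes RPP2A differed by -1.46 ± 0.43 (limma adjusted p = 0.06), its arrays with ethanol being -0.41, -0.83 and -2.39 against 0.57, -0.05 and 0.23. RPP1A differed by -0.62 ± 0.21, RPP1B by -0.33 ± 0.72 and RPP2B by -0.17 ± 0.28, and none of these 3 passed. RPL1B had the most negative difference of all members in CM1, -2.62 ± 0.98 (limma adjusted p = 0.14). It rested on the value of 5.94 on CM1 0% replicate 3, beside 0.13 and 0.73 on the other arrays without ethanol and 0.33, -1.19 and -0.21 with it.

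**Figure D3:**
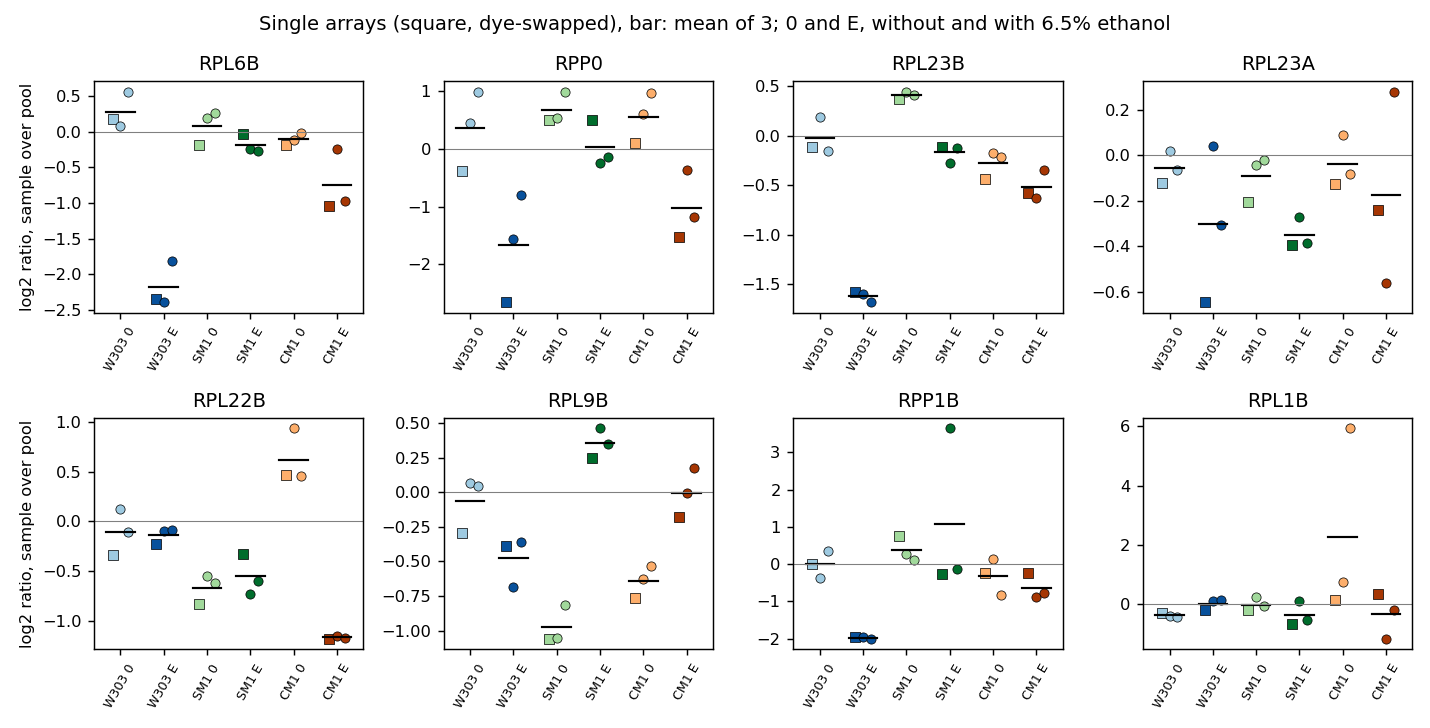
Log2 ratio over the pool (vertical axes, each with its own scale) of 8 members on every array, by strain without (0) and with (E) 6.5% ethanol; squares are dye-swapped arrays and bars are means of 3. RPL22B in CM1 moves from between 0.46 and 0.94 to about -1.17, RPL9B in SM1 from about -1 to between 0.25 and 0.46, and RPP1B and RPL1B each have 1 array, at 3.64 and 5.94, far above the others.

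Without ethanol few members differed between strains by the test. Between SM1 and W303-1A the members' median difference was 0.09, and 1 member was higher and 1 lower, where 0.177% and 1.56% of all genes were. The lower one was RPL9B, described above. The higher one was RPP1A, at 0.28, 0.62 and 0.83 in SM1 against -0.43, -0.39 and -0.12 in W303-1A, a difference of 0.89 ± 0.21 (limma adjusted p = 0.0405) with no overlap. Leaving out any of the 6 arrays ended the RPP1A call, and leaving out any but W303-1A 0% replicate 1 ended that of RPL9B. With the replicate number as a block 1 of the 2 calls, that of RPL9B, passed. Between CM1 and W303-1A the median difference was -0.05 and 0 members passed in limma, where 0.106% of all genes were higher and 1.12% lower. An unadjusted p under 0.05 in limma gave 2 higher and 2 lower members, where 4.21% of all genes were higher and 7.81% lower. Between CM1 and SM1 the median difference was -0.11. RPL22B was higher in CM1 by 1.29 ± 0.20 (limma adjusted p = 0.00566) and 0 were lower, where 0.814% and 0.195% of all genes were. That call was lost without SM1 0% replicate 1 (limma adjusted p = 0.0569).

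With ethanol in the medium the members' median on every W303-1A array lay below that on every array of both mutants. The counts of calls in the main fit, given here, were smaller after quantile normalization and with the compared groups alone, as the closing section shows. SM1 exceeded W303-1A in 55 of 81 members and was lower in 0, where 10.3% of all genes were higher and 7.19% lower, with a median difference of 0.90. This comparison uses the same W303-1A arrays with ethanol as the ethanol comparison of the parent. RPL6B was higher in SM1 by 2.00 ± 0.24 (limma adjusted p = 0.000104), with -0.04, -0.24 and -0.27 in SM1 beside -2.34, -2.39 and -1.81 in W303-1A. RPL36B was higher by 2.00 ± 0.29 (limma adjusted p = 0.00036), with 0.07, 0.36 and 0.31 beside -2.40, -1.31 and -1.53. In both genes every SM1 array lay above every W303-1A array.

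RPP1B had the largest difference between these groups, 3.06 ± 0.72 (limma adjusted p = 0.0096), but its SM1 arrays were -0.28, 3.64 and -0.12. Without SM1 6.5% replicate 2 the difference was 1.74 (limma adjusted p = 0.00277). RPL40A and RPL36A were high on the same array, at 2.97 and 2.37. Their differences of 1.92 and 1.87 became 0.94 and 0.98 without it, and both still passed (limma adjusted p = 0.0139 and 0.0168).

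CM1 exceeded W303-1A with ethanol in 22 members and was lower in 1, where 6.96% of all genes were higher and 5.29% lower, with a median of 0.48. RPL6B was higher by 1.43 ± 0.24 (limma adjusted p = 0.00168), RPL26A by 1.28 ± 0.26 (limma adjusted p = 0.00647) and RPL6A by 1.17 ± 0.24 (limma adjusted p = 0.00621). The CM1 arrays of RPL26A, at -0.44, 0.04 and -0.15, were all above those of W303-1A, at -1.38, -1.64 and -1.37. The lower one was RPL22B, at -1.03 ± 0.20 (limma adjusted p = 0.00418). The count of 23 was 10 without W303-1A 6.5% replicate 2, 11 without CM1 6.5% replicate 3, 12 without W303-1A 6.5% replicate 1 and 13 without W303-1A 6.5% replicate 3.

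Between the mutants with ethanol, CM1 was lower than SM1 in 3 members and higher in 0, where 1.17% of all genes were lower and 1.27% higher, with a median of -0.36. An unadjusted p under 0.05 gave 24 lower and 0 higher in limma, where 10.6% of all genes were lower and 9.89% higher. RPL21A differed by -1.45 ± 0.32 (limma adjusted p = 0.0289), with -1.26, -2.35 and -0.59 in CM1 and 0.04, 0.09 and -0.00 in SM1. RPL30, whose protein is known to repress splicing of its own transcript, differed by -0.86 ± 0.19 (limma adjusted p = 0.0284), with -0.58, -0.76 and -0.44 against 0.36, 0.37 and 0.07. RPL26B differed by -0.83 ± 0.18 (limma adjusted p = 0.0294), with -1.40, -0.70 and -0.94 against -0.20, -0.20 and -0.15. All 3 had no overlap between the strains. None passed in every fit that left out 1 array, and 0 of the 81 passed without SM1 6.5% replicate 1 or without SM1 6.5% replicate 2.

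The difference between strains in the ethanol change was tested itself. The change was less negative or more positive in SM1 than in W303-1A for 13 of 81 members and the reverse for 0, where 4.55% and 1.82% of all genes passed in these directions. The median difference of changes was 0.79. Limma gave 48 and 0 at an unadjusted p under 0.05, where 14.3% and 8.78% of all genes passed in these directions. RPL36B led at 2.38 ± 0.41 (limma adjusted p = 0.00469), followed by RPL6B at 2.19 ± 0.34 (limma adjusted p = 0.00264) and RPL6A at 1.98 ± 0.34 (limma adjusted p = 0.00469). The count was 6 or 7 without any 1 of 7 of the 12 arrays. Of the 13, the calls of RPL13B, RPL33B, RPL36B, RPL6A, RPL6B and RPL9B passed whichever of the 12 arrays was left out. For CM1 against W303-1A 7 members passed on the higher and 1, RPL22B, on the lower side, where 3.45% and 1.2% of all genes did, with a median of 0.54. RPL6B, at 1.81 ± 0.34 (limma adjusted p = 0.00856), and RPL6A, at 1.50 ± 0.34 (limma adjusted p = 0.021), were the largest on the higher side. Of the 8 calls those of RPL22B, RPL23B and RPL6B passed whichever of the 12 arrays was left out. These 2 comparisons share the W303-1A arrays. For CM1 against SM1 RPL22B passed on the lower side and 0 on the higher, where 0.23% and 0.106% of all genes did, with a median of -0.29. At an unadjusted p under 0.05 limma gave 6 lower and 0 higher, where 5.15% of all genes were lower and 4.88% higher. This median was -0.47 on swapped arrays alone and -0.09 on normal arrays alone, so its size differed between the dye orientations. Across the 81 members the ethanol changes of W303-1A and CM1 had r = 0.05 and rho = 0.26, those of W303-1A and SM1 r = 0.18 and rho = 0.25, and those of SM1 and CM1 r = 0.43 and rho = 0.50. These are descriptions over genes that share arrays and include cross-hybridising copies. They also include the single far values of RPL1B in CM1 and of RPP1B, RPL40A and RPL36A in SM1, to which r is sensitive. The correlations without these genes were not computed.

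The A and B copies of a pair were set against each other by testing the gap between their ethanol changes over the 74 pairs of names in the table that differ only in a last letter A or B. These include the 34 member pairs, and 14 of the other 40 are pairs of systematic names, which need not be gene copies. In W303-1A the gap passed for 5 of 34 member pairs, a lower share than the 20.3% of all 74 pairs. In SM1 and in CM1 1 of 34 passed, near the 2.7% of all pairs. A passed gap was thus not particular to the members, and the pairs below are given as single cases. RPL23, whose protein sits at the face that meets the small subunit, had the largest. RPL23B fell from -0.12, 0.19 and -0.16 to -1.58, -1.59 and -1.68, and RPL23A went from -0.12, 0.02 and -0.06 to -0.65, 0.04 and -0.31, a gap of A minus B of 1.34 ± 0.19 (limma adjusted p = 0.000248). Copy B was separated by ethanol on all arrays while copy A overlapped.

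RPL37 had a gap of 0.83 ± 0.17 (limma adjusted p = 0.00358), with a change of -0.71 in copy B and 0.12 in copy A. RPL37B went from -0.24, 0.17 and -0.03 to -1.11, -0.75 and -0.37. In RPL8, RPL22 and RPL19 copy A had the more negative change. The gap of RPL8 was -0.79 ± 0.23 (limma adjusted p = 0.0264), with RPL8A going from -0.14, 0.15 and 0.37 to -1.30, -1.10 and -1.09 and RPL8B from 0.17, -0.27 and 0.18 to -0.57, 0.09 and -0.94. RPL22 had a gap of -0.65 ± 0.20 (limma adjusted p = 0.0299) and RPL19 one of -0.51 ± 0.16 (limma adjusted p = 0.0402). In each of these 5 pairs 1 copy passed the test of its own change and the other did not. Leaving out 1 array ended the call of RPL22 and of RPL19 in 4 of 6 fits each and that of RPL8 in 3 of 6, and those of RPL23 and RPL37 in 0 of 6. With the compared groups alone the limma adjusted p was 0.00415 for RPL23, 0.0512 for RPL37, 0.0942 for RPL8, 0.142 for RPL22 and 0.229 for RPL19. With the replicate number as a block the call of RPL19 was lost (limma adjusted p = 0.0579). With the trend along the probe order removed the gap of RPL22 was -0.35 (limma adjusted p = 0.207). In CM1 the gap of RPL22 was 1.00 ± 0.20 (limma adjusted p = 0.0131), and the difference between the strains in this gap was not tested. That was the 1 member pair to pass in CM1, where 2.7% of all pairs did, and it was lost without CM1 0% replicate 1 (0.0608) or CM1 0% replicate 2 (0.108). In SM1 the gap of RPL9 passed, at -1.47 ± 0.35 (limma adjusted p = 0.0432), where 2.7% of all pairs did. It did not pass with the replicate number as a block (limma adjusted p = 0.0685) or without any 1 of the 6 SM1 arrays. Cross-hybridisation of the copies was not tested.

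**Figure D4:**
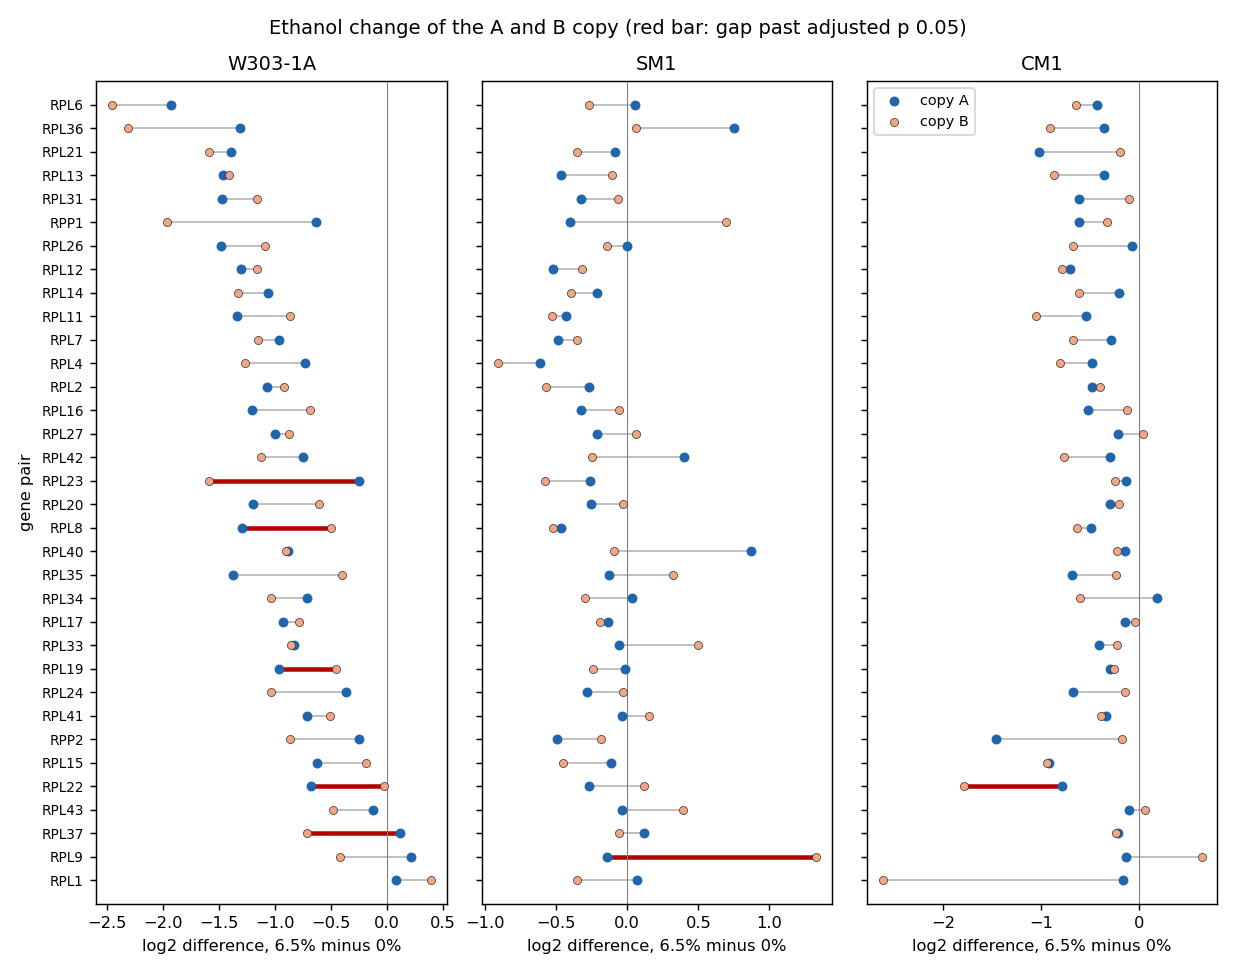
Log2 difference between 6.5% and 0% ethanol (horizontal axis) of copy A (blue) and copy B (orange) for 34 gene pairs (rows) in 3 strains, joined by a bar that is red where the gap passed at an adjusted p under 0.05. RPL23, RPL37, RPL8, RPL22 and RPL19 passed in W303-1A, RPL9 in SM1 and RPL22 in CM1.

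Genes that work with the large-subunit proteins were counted in the same fit. Small-subunit protein genes fell in 42 of 55 cases in W303-1A, with a median of -1.14, and 0 of 55 fell in SM1 and 4 of 55 in CM1, with medians of -0.16 and -0.44. Over all genes 13.6%, 1.26% and 1.73% fell in these strains. Of 41 measured chaperones and factors of large-subunit assembly, 26 fell in W303-1A, 0 in SM1 and 1 in CM1, none rose, and the medians were -1.18, -0.08 and -0.58. RRB1, the chaperone of the RPL3 protein, went in W303-1A from 0.15, 0.81 and 0.14 to -2.28, -1.98 and -2.11, a change of -2.49 ± 0.33 (limma adjusted p = 9.97e-05). MRT4, a relative of RPP0 that holds its place in the maturing particle, fell by 1.07 (SE 0.21, limma adjusted p = 0.00204) in W303-1A, from -0.36, 0.19 and 0.13 to -0.93, -1.30 and -1.02. In SM1 RRB1 differed by -0.08 ± 0.33 and MRT4 by 0.39 ± 0.21, and neither passed.

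Of 22 measured regulators of ribosomal protein genes 3 fell and 1 rose in W303-1A, 2 fell in SM1 and 1 rose in CM1. The 3 that fell in W303-1A are 13.6% of the list, the same as the 13.6% of all genes that fell, and 10.2% of all genes rose there. In SM1 1.26% of all genes fell, and in CM1 3.88% rose. RAP1, the factor bound at most of these promoters, went from -0.02, 0.44 and 0.97 to -0.98, -1.21 and -1.03 in W303-1A, a fall of 1.54 (SE 0.37, limma adjusted p = 0.00698). In SM1 it went from -0.05, 0.70 and 1.13 to -2.28, -0.92 and -0.46, a fall of 1.82 (SE 0.37, limma adjusted p = 0.00993), and its arrays did not overlap in either strain. FHL1 fell in W303-1A by 1.73 (SE 0.51, limma adjusted p = 0.0218), but its arrays of -0.18, 2.07 and 1.27 without and -2.31, 0.30 and -0.01 with ethanol overlapped. HMO1, a chromatin protein of these promoters, fell in SM1 from 1.22, 0.87 and 0.49 to -0.78, -0.80 and -0.72, a change of -1.63 ± 0.27 (limma adjusted p = 0.00274). In W303-1A HMO1 differed by 0.36 ± 0.27 and did not pass. IFH1, the coactivator recruited by FHL1, differed by -0.02 ± 0.32 in W303-1A.

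Genes known to be high in slowly growing and stationary cells were counted too. They include HSP12, which was used above for the direction of the ratios, so its rise is not separate support. Of 17 such genes 12 rose and 1 fell in W303-1A, 8 rose in SM1 and 6 rose in CM1, with median differences of 1.54, 1.42 and 0.80. Over all genes 10.2%, 2.83% and 3.88% rose. The list is not a measure of growth rate, as it holds stress genes such as HSP12. The part of growth rate in the members' changes was not tested. The a-cell markers fell in 5 of 6 cases in W303-1A, in 1 of 6 in SM1 and in 0 of 6 in CM1, where 13.6%, 1.26% and 1.73% of all genes fell, and 0 of 4 alpha-cell markers passed in any strain. Without ethanol all 6 a-cell markers already stood below the pool on every array of SM1 and CM1. The falls in the mutants were thus counted from lower ratios than in the parent.

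**Figure D5:**
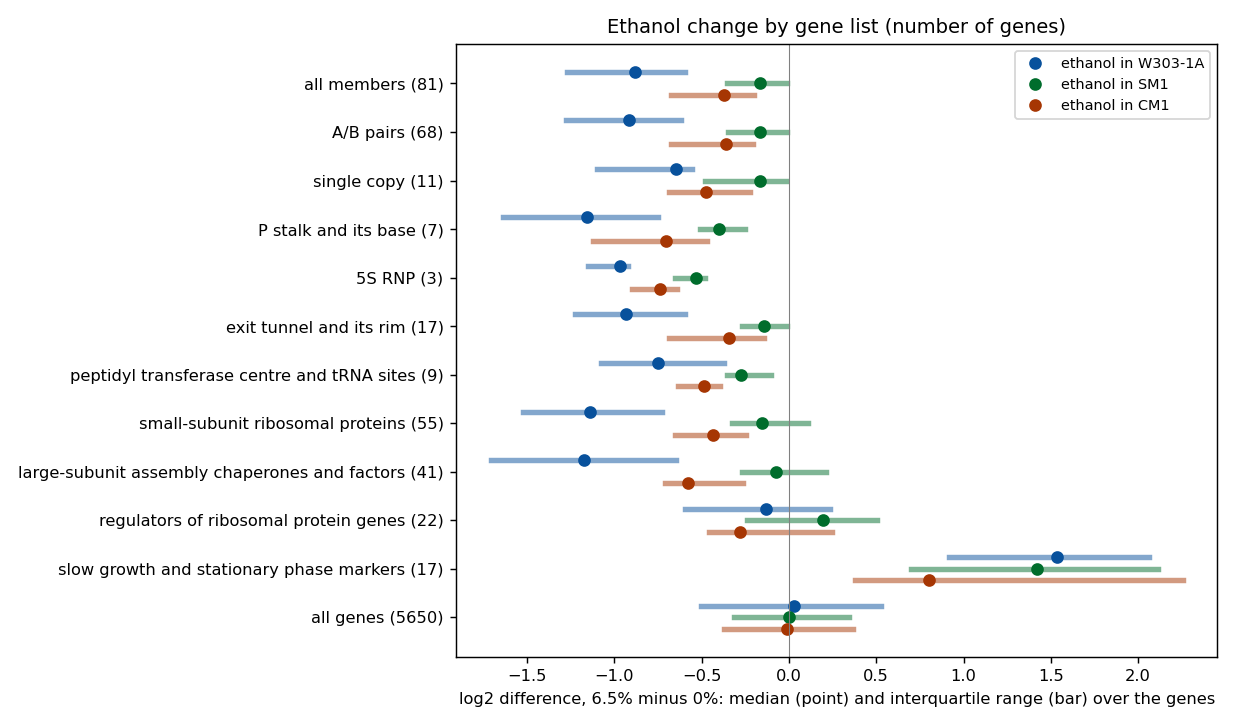
Median (point) and interquartile range (bar) of the log2 differences between 6.5% and 0% ethanol (horizontal axis) over gene lists (rows, number of genes in brackets) in 3 strains. The members' medians are -0.88 in W303-1A, -0.17 in SM1 and -0.37 in CM1, beside -1.18, -0.08 and -0.58 for the assembly factors and values near 0 for all genes.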

How the data were processed

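The deposited values of the 18 two-colour arrays are signed and centred near 0 and were read as log2 ratios of red over green, with the dyes taken from the labels. The log base, the direction and how the authors normalized and centred them are not given in the sources used here. Since the 6 swapped arrays hold the pool in red per the labels, their values were multiplied by -1. The number of arrays limits precision, and signal intensities were not used here. Of 6368 probes 5673 carried 1 gene symbol, 0 several and 695 none; the latter were left out. Where 2 probes shared a symbol, as for 23 genes, their mean was taken, giving 5650 genes. No value was missing.

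limma 3.58.1 under R 4.3.3 was fitted to all 18 arrays with 6 group means and a dye term, with empirical Bayes moderation and Benjamini-Hochberg adjustment over 5650 genes at 0.05, for 12 comparisons. The gap between copies was fitted over 74 pairs. The code was tested on simulated data. Same-numbered arrays deviated together (r from 0.20 to 0.75, 27 of 27 pairs over 0.1). After the dye term 6 of 27 pairs were over 0.1, among them every pair of CM1 and SM1 without ethanol (r of 0.41, 0.11 and 0.23). Fitting that term itself lowers such correlations, so these values cannot show whether the numbers pair arrays beyond the dye orientation. A replicate block was the alternative. Replicates were separate cultures per the labels.

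Symbols matched RefSeq for 81 of 81 members. Sequences and genome positions are not used here. The members, the lists and the rule for named genes were chosen with earlier results of these data known. The rule names the 5 largest falls and the 5 most positive differences in W303-1A and up to 3 passed members of each other comparison. It also names the stalk genes, the pairs with a passed gap, HSP12 and up to 6 assembly and regulator genes. Other members are named by role as examples.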

Additional observations from a re-analysis of the deposited data

Results flagged for a closer look

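The ethanol change differed between strains, by the limma test of the difference itself at an adjusted p under 0.05, for 13 members between SM1 and W303-1A, 8 between CM1 and W303-1A and 1 between CM1 and SM1. Between SM1 and W303-1A the differences of log2 changes were 1.31 for RPL13B, 1.08 for RPL18B, 1.24 for RPL21B, 1.01 for RPL23B, 1.48 for RPL26A, 0.95 for RPL26B and 1.15 for RPL31A. They were 1.36 for RPL33B, 2.38 for RPL36B, 1.15 for RPL42A, 1.98 for RPL6A, 2.19 for RPL6B and 1.75 for RPL9B. Between CM1 and W303-1A they were 1.39 for RPL21B, -1.76 for RPL22B, 1.35 for RPL23B, 1.41 for RPL26A, 1.00 for RPL3, 1.50 for RPL6A, 1.81 for RPL6B and 1.05 for RPL9B. Between CM1 and SM1 the difference was -1.91 for RPL22B. The groups of 3 arrays are too small for a test of single outlying arrays.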

How the results depend on the processing

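Counts of members that passed depended on the scaling and the model. Quantile normalization gave 27 of 81 for ethanol in W303-1A, 5 in SM1 and 3 in CM1, and 5, 1 and 3 for SM1 against W303-1A, CM1 against W303-1A and CM1 against SM1 without ethanol. It gave 22, 3 and 0 for these pairs with ethanol, 6 and 3 for the ethanol response of SM1 and CM1 against W303-1A, and 2 pair gaps in W303-1A. With the swapped arrays not turned, 0 members and 0 pair gaps passed in every comparison, and the members' median for the response of CM1 against SM1 reversed to 0.045. Removing the trend along the probe order gave 2 for ethanol in SM1, 0 for SM1 against W303-1A without ethanol, 5 for CM1 against SM1 with ethanol, 5 for the response of CM1 against W303-1A and 0 pair gaps in SM1. Without the dye term, 3 passed for ethanol in CM1, 0 for SM1 against W303-1A without ethanol, 11 for CM1 against W303-1A and 0 for CM1 against SM1 with ethanol, 5 and 5 for the responses against W303-1A, and 0 pair gaps in SM1. Array weights, whose fit stopped before its tolerance, gave 9 in SM1 and 13 in CM1 for ethanol, 6, 2 and 6 for the 3 pairs without ethanol, 0 for CM1 against SM1 with ethanol, 23 for the response of SM1 against W303-1A and 2 pair gaps in SM1.

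With a replicate block instead of a dye term, 1 passed for SM1 against W303-1A without ethanol and 0 pair gaps in SM1, the RPL19 gap in W303-1A was lost (limma adjusted p = 0.0579), and the pairing moved no other count by more than 1.5 times. With the compared groups alone, 2 passed for ethanol in SM1, 0 in CM1, 0 for SM1 against W303-1A without ethanol, 19, 0 and 0 for SM1 and CM1 against W303-1A and CM1 against SM1 with ethanol, 3 and 0 for the responses of CM1 against W303-1A and SM1, and 0 pair gaps in CM1. Normal arrays alone, chosen after the values were seen, gave 2 for ethanol in CM1, 0 for SM1 against W303-1A and for CM1 against SM1 without ethanol, 32 and 0 for SM1 against W303-1A and CM1 against SM1 with ethanol, and 7 and 0 for the responses of SM1 against W303-1A and CM1 against SM1. Apart from the fits with fewer arrays, the cause of these shifts was not tested.

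Leaving out 1 array at a time gave 42 to 48 for ethanol in W303-1A, 1 in SM1 and 2 to 8 in CM1. Without ethanol it gave 0 to 1 for SM1 and 0 for CM1 against W303-1A and 0 to 1 for CM1 against SM1, and with ethanol 37 to 51, 10 to 24 and 0 to 4. The responses gave 6 to 10, 3 to 10 and 0 to 1, and the pair gaps 3 to 5 in W303-1A, 0 in SM1 and 0 to 2 in CM1. For ethanol in CM1 the count fell to between 2 and 4 without any CM1 array other than 6.5% replicate 2. The response of SM1 against W303-1A gave 6 without W303-1A 0% replicate 2, SM1 0% replicate 2, SM1 0% replicate 3 or SM1 6.5% replicate 1, and 7 without W303-1A 0% replicate 3, W303-1A 6.5% replicate 2 or SM1 0% replicate 1. That of CM1 against W303-1A gave 3 without CM1 0% replicate 3, 4 without W303-1A 0% replicate 2 or 3, W303-1A 6.5% replicate 2 or CM1 0% replicate 2, and 5 without CM1 0% replicate 1 or CM1 6.5% replicate 3. Centring each array, using 1 probe per gene, fitting all probes and leaving out RPP1 moved no count by more than 1.5 times.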
